A study of Mus musculus with 8 samples.

Results

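The gp130 axis is the set of genes through which interleukin-6 and related cytokines reach STAT3. It was followed here through 10 genes taken by name: the receptor genes Il6st, Il6ra, Lifr, Osmr and Il11ra1, the kinase genes Jak1, Jak2 and Tyk2, the transcription factor gene Stat3 and the feedback inhibitor gene Socs3. Il6st was selected on its measured KO minus WT difference in these arrays, and the others were chosen by their place in the pathway. Of the 10 genes, 9 had a row named in the platform annotation, out of 19505 genes with a symbol, and each had a single row. Il11ra1 had no named row and has no value here.

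RNA came from GFP-positive granulocyte-macrophage progenitors (GMPs), sorted as leukaemia stem cells from the marrow of transplanted mice. In both groups the leukaemia carried MLL-AF9, a fusion oncogene that gives myeloid progenitors the ability to self-renew. The knockout group (KO, genotype Pik3ca-/-) had 3 arrays and the wild-type group (WT) had 5. Pik3ca encodes p110-alpha, a catalytic subunit of phosphoinositide 3-kinase (PI3K). The labels give no strain, age, means of deletion or account of the recipients' own marrow cells. They also do not tie arrays to mice, so intervals and p-values rest on the spread among these 8 samples, which may be technical.

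Il6st encodes gp130, a receptor chain that binds little cytokine alone and is shared by a family of receptors. Il6ra, Lifr, Osmr and Il11ra1 encode the partner chains that give the complex its choice of cytokine. The kinases JAK1, JAK2 and TYK2 sit on the receptor tails and phosphorylate STAT3, which then enters the nucleus and turns on genes that include Socs3, whose product binds gp130 and the kinases and shuts the signal down. In blood progenitors the axis is known for supporting survival and myeloid output.

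The promoters of Il6st, whose level differed most among these genes, and of Socs3, the classical STAT3 target among them, are shown as the 250 bases before the transcription start (RefSeq, GRCm38.p6, gene strand, 5′ to 3′). The Il6st promoter lies on the plus strand at chr13:112463820-112464069, and capitals mark the CCAAT and GGGCGG motifs on either strand. The Socs3 promoter lies on the minus strand at chr11:117969367-117969616, and capitals mark the STAT-type palindrome TTCNNNGAA.
Il6st: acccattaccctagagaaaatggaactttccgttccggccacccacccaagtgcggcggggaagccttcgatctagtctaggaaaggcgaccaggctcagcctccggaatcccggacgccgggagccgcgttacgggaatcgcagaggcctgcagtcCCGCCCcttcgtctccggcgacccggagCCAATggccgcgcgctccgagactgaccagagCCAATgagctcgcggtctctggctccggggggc
Socs3: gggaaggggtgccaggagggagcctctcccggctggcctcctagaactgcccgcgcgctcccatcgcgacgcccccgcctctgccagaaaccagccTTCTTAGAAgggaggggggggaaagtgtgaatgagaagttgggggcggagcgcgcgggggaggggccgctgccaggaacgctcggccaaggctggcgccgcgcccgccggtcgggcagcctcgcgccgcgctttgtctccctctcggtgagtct

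TTCNNNGAA was found in 1 promoter of the 10 genes, that of Socs3, with its first base 154 bases before the start, and in 7.02% of all 32851 promoters of the same length. The same palindrome with a spacer longer by 1 base was found in 0 of them and in 5.85% of all promoters. Il6st held CCAAT with first bases 65 and 33 bases before the start, and GGGCGG on the opposite strand at 93 bases. The 10 genes have 12 promoters in the table. CCAAT was present in 6 of the 12 and in 33.8% of all promoters, and GGGCGG in 9 of the 12 and in 32.7%. Both motifs were picked after the sequences were seen, so no enrichment is read from these shares. These matches describe the letters in this window and were not tested for binding.

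All levels below are the deposited values, read as log2, and differences are KO minus WT on that scale. Array medians lay between 5.26 and 5.51. Of 14 GMP genes listed, 13 were bright enough to test, at mixed levels, and Flt3 lay below the median row on all 8 arrays. Mpo, encoding myeloperoxidase, was at 17.1 to 17.35 in KO and 17.05 to 17.49 in WT. Elane, encoding neutrophil elastase, was at 17.65 to 17.79 and 17.6 to 17.89, and Cebpa at 6.81 to 7.01 and 6.79 to 7.14. Cd34, a surface marker of GMPs, ranged from 5.63 to 7.81 in KO and from 7.24 to 10.94 in WT, a difference of -2.0 with overlap. Pik3ca was 8.73, 9.31 and 9.40 in KO and 9.48, 9.57, 8.41, 9.51 and 9.58 in WT, so the groups overlapped. The deleted part of the gene is not given, and this row does not check the genotype labels. WT array 3 stood apart from the rest, with a mean correlation across genes of 0.921 with the other arrays against 0.968 to 0.972 for the others. It was the lowest array for 36.5% of the tested genes and the highest for 25%, so the differences are also given without it.

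A gene was tested with limma, which borrows information on spread across genes, if its row exceeded the array's median row on at least 3 arrays. With Benjamini-Hochberg adjustment over 9920 tested genes, 0 were higher and 0 were lower in KO, or 0.0% in each direction at an adjusted p under 0.05. The smallest adjusted p was 0.998, and 282 genes had an unadjusted p under 0.05. Without WT array 3 the counts were again 0 and 0, with 464 genes at an unadjusted p under 0.05. Of the 9 axis genes with a row, 6 were bright enough to be tested and 0 were called. For Il6st no p is given, since this contrast chose it.

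Il6st was lower in KO. Its values were 6.05, 6.07 and 6.83 in KO arrays 1 to 3 and 8.52, 7.60, 9.11, 8.25 and 8.36 in WT arrays 1 to 5. All KO arrays lay below all WT arrays. Mean levels were 6.31 ± 0.44 in KO (SD, n = 3) and 8.37 ± 0.54 in WT (SD, n = 5). KO minus WT was -2.06, with a standard error of 0.35 and a 95% interval of -2.84 to -1.27. Without WT array 3, which held the highest value, the difference was -1.87 with an interval of -2.54 to -1.20. Among all tested genes, 7 had a difference at or below that of Il6st, itself included, and 11 without WT array 3. Because Il6st was chosen on this difference, the intervals and the rank only describe it. They are not corrected for that choice and are no test of it.

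Ordered from low to high, the arrays ran from KO 1, KO 2 and KO 3 to WT 2, WT 4, WT 5, WT 1 and WT 3. The step between the groups, from KO array 3 to WT array 2, was 0.77. It was the largest step, but steps of a like size lay inside the groups, 0.76 between KO arrays 2 and 3 and 0.66 between WT arrays 2 and 4.

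The row also sat nearer to background in KO. Of the 5222 negative control rows, between 63.9% and 74.5% lay below Il6st on the KO arrays and between 79.3% and 90.8% on the WT arrays. Il6st was above the median row on 8 of 8 arrays. No fold on a linear scale is given, since the KO level was not clearly above these rows.

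**Figure D1:**
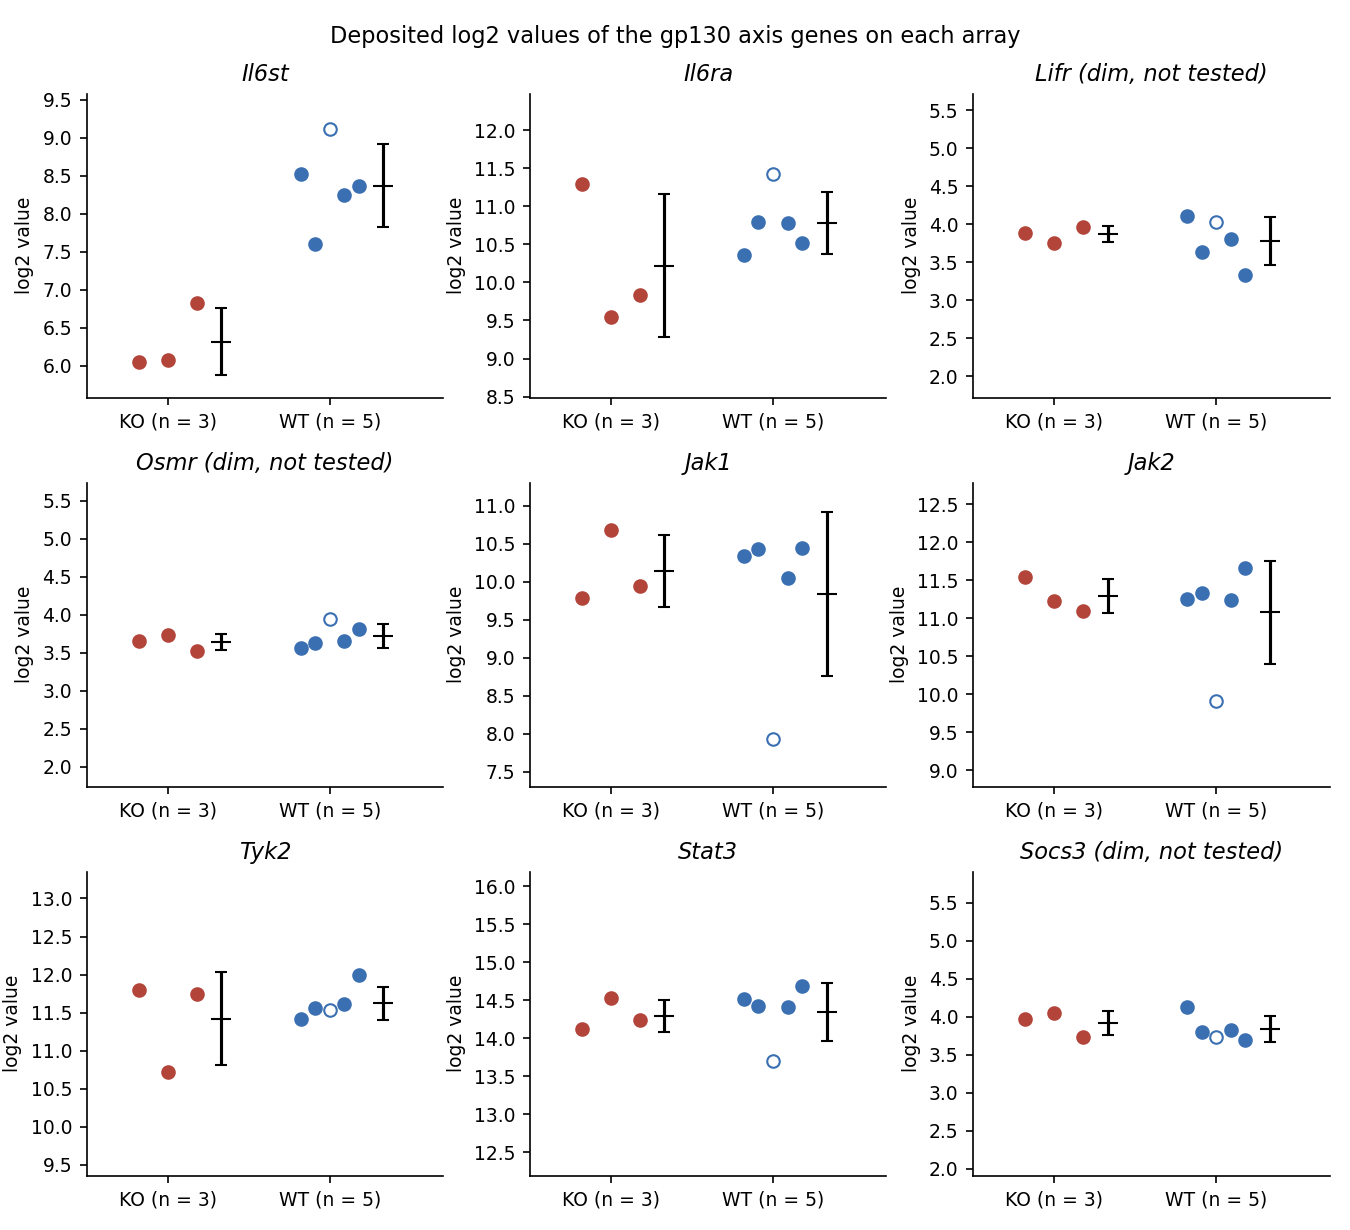
Deposited log2 values of the 9 axis genes with a row, by array, with KO in red and WT in blue, WT array 3 as an open circle, and the mean ± SD beside each group. Every panel spans 4 log2 units: Il6st is at 6.05 to 6.83 in KO and 7.60 to 9.11 in WT, the only panel without overlap, and WT array 3 is the lowest point for Jak1, Jak2 and Stat3.

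Among the partner chains, Il6ra, which encodes the interleukin-6 receptor alpha chain, was bright and variable. It was 11.29, 9.54 and 9.83 in KO and 10.36, 10.79, 11.43, 10.78 and 10.52 in WT. KO arrays 2 and 3 lay below every WT array, while KO array 1 was above all but WT array 3, so the groups overlapped. The difference was -0.56 with an interval of -1.49 to 0.38 (limma adjusted p = 0.998). It was -1.09 without KO array 1, where the groups no longer overlapped, -0.22 without KO array 2 and -0.39 without WT array 3. How many of all tested genes did not overlap without KO array 1 was not counted, so nothing is read from that separation.

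Lifr and Osmr, which encode the receptors of leukaemia inhibitory factor and oncostatin M, were dim. Lifr was 3.88, 3.76 and 3.97 in KO and 4.11, 3.63, 4.03, 3.81 and 3.33 in WT. Osmr was 3.65, 3.74 and 3.53 in KO and 3.56, 3.63, 3.95, 3.65 and 3.81 in WT. Both lay below the median row on all 8 arrays, with 9.23% to 27.7% of negative control rows below Lifr and 12.9% to 23.3% below Osmr. Neither was tested, and no direction is read from values at this level.

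The kinase genes were bright, and none was called. Jak1 was 9.79, 10.68 and 9.95 in KO and 10.34, 10.43, 7.93, 10.05 and 10.44 in WT, and Jak2 was 11.54, 11.23 and 11.10 in KO and 11.25, 11.33, 9.91, 11.24 and 11.66 in WT. WT array 3 was the lowest array in both genes, at -2.39 against the mean of the other WT arrays in Jak1 and at -1.46 in Jak2, and the remaining arrays of the groups overlapped. With all arrays the differences were 0.30 for Jak1 (interval -1.0 to 1.6) and 0.21 for Jak2 (interval -0.64 to 1.07), each with a limma adjusted p of 0.998. Both signs turned when WT array 3 was left out, to -0.18 (interval -0.74 to 0.38) and -0.08 (interval -0.52 to 0.35).

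Tyk2, the third kinase of the receptor complex, was 11.80, 10.72 and 11.74 in KO and 11.42, 11.56, 11.54, 11.61 and 11.99 in WT. KO array 2 was the lowest of the 8 and the other KO arrays lay within the WT range. The difference was -0.20 with an interval of -0.85 to 0.45 (limma adjusted p = 0.998), 0.15 without KO array 2 and -0.22 without WT array 3.

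Stat3, which encodes the transcription factor that the kinases activate, was 14.12, 14.53 and 14.24 in KO and 14.52, 14.42, 13.70, 14.41 and 14.69 in WT. The groups overlapped, with WT array 3 lowest. The difference was -0.05 with an interval of -0.63 to 0.53 (limma adjusted p = 0.998). Without WT array 3 it was -0.21, with an interval of -0.61 to 0.18.

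Socs3 was dim in both groups, at 3.97, 4.05 and 3.74 in KO and 4.13, 3.80, 3.73, 3.83 and 3.69 in WT. It lay below the median row on all 8 arrays, and 15.4% to 30.9% of negative control rows lay below it. It was not tested, and no direction is read from it.

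**Figure D2:**
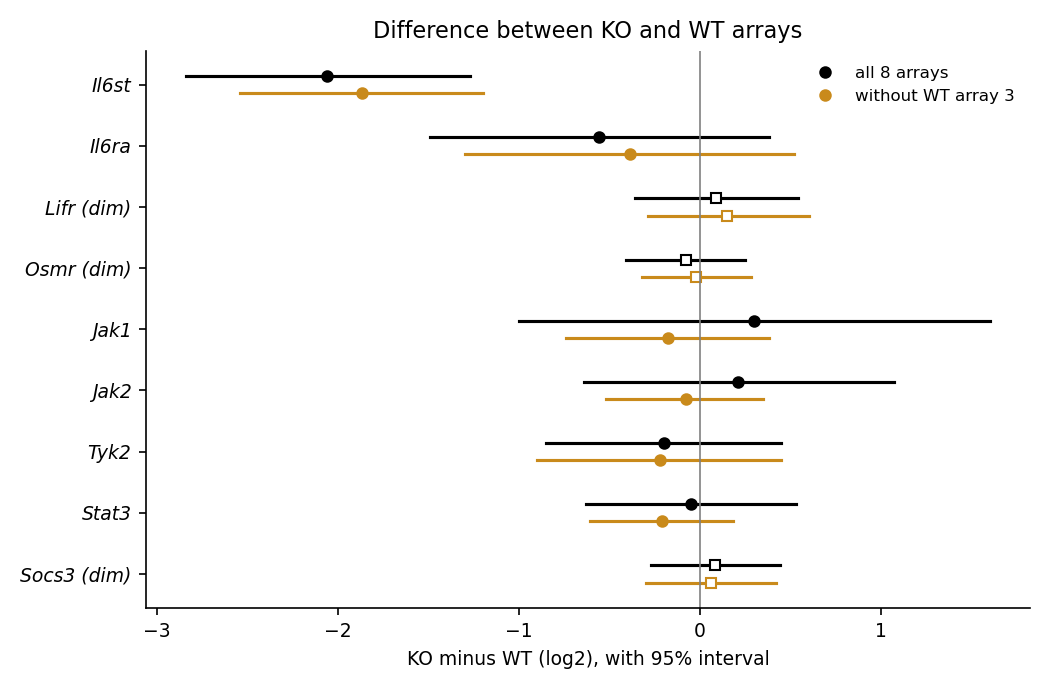
KO minus WT difference (log2) with its 95% interval for each axis gene, with all 8 arrays in black and without WT array 3 in orange, where filled circles are tested genes and open squares are genes too dim to test. Il6st lies at -2.06 and -1.87, and the intervals of the other 8 genes include 0 in both fits. Il6st was chosen on this difference, so its interval is no test.

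Over the 6 tested axis genes, the median difference was -0.13, with 4 below 0 and 2 above, against a median of 0.04 over all tested genes. With WT array 3 left out the median was -0.22, against 0.00018 over all tested genes, and all 6 were below 0. The 6 include Il6st, and the intervals of the other 5 include 0. The share of all tested genes below 0 was not counted. KO and WT did not overlap in 1 of the 6, Il6st, with KO lower, where 1.51% of all tested genes did so in that direction, 1.58% with KO higher and 3.09% in either direction. The shares were 2.93%, 2.62% and 5.55% when WT array 3 was left out. Since this contrast chose Il6st, nothing is read from these counts. On WT array 3, Il6st and Il6ra were the highest of the 8 arrays while Jak1, Jak2 and Stat3 were the lowest.

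The 6 genes whose pattern over the 8 arrays lay nearest to Il6st were found by the root mean square difference after each gene was centred on its own mean. They were Bcl2 at 0.403, Safb at 0.521, Orai3 at 0.525, Wfdc17 at 0.529, Ankrd50 at 0.552 and Lilra6 at 0.557, against a median of 1.178 over the other tested genes. Bcl2 encodes the anti-apoptotic protein, Safb a nuclear scaffold attachment factor, Orai3 a calcium channel subunit, and Lilra6 a leukocyte receptor of the immunoglobulin-like family. All points share the same arrays, and a gene near Il6st must also be low in KO.

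Bcl2 was 7.42, 8.04 and 8.37 in KO and 9.10, 9.21, 10.03, 9.51 and 9.56 in WT, without overlap. Its difference was -1.54 with an interval of -2.20 to -0.87 (limma adjusted p = 0.998). Without WT array 3 it was -1.40 (limma adjusted p = 0.674). Bcl2 was taken for its likeness to Il6st on these arrays, so the interval is no test. Safb differed by -1.45, Orai3 by -1.13 and Ankrd50 by -1.03, also without overlap, while Wfdc17 at -1.10 and Lilra6 at -1.09 overlapped. Each had a limma adjusted p of 0.998. Wfdc17 and Lilra6 sat near background in KO, where 37.3% to 58.6% and 53.9% to 72.0% of negative control rows lay below them. Wfdc17 lay above the median row on 1 KO array and 4 WT arrays, so it passed the filter through WT. Leaving out WT array 3 gave -1.19 for Safb, -1.02 for Orai3, -0.82 for Ankrd50, -0.89 for Wfdc17 and -0.85 for Lilra6. All 6, like Il6st, were highest on WT array 3.

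**Figure D3:**
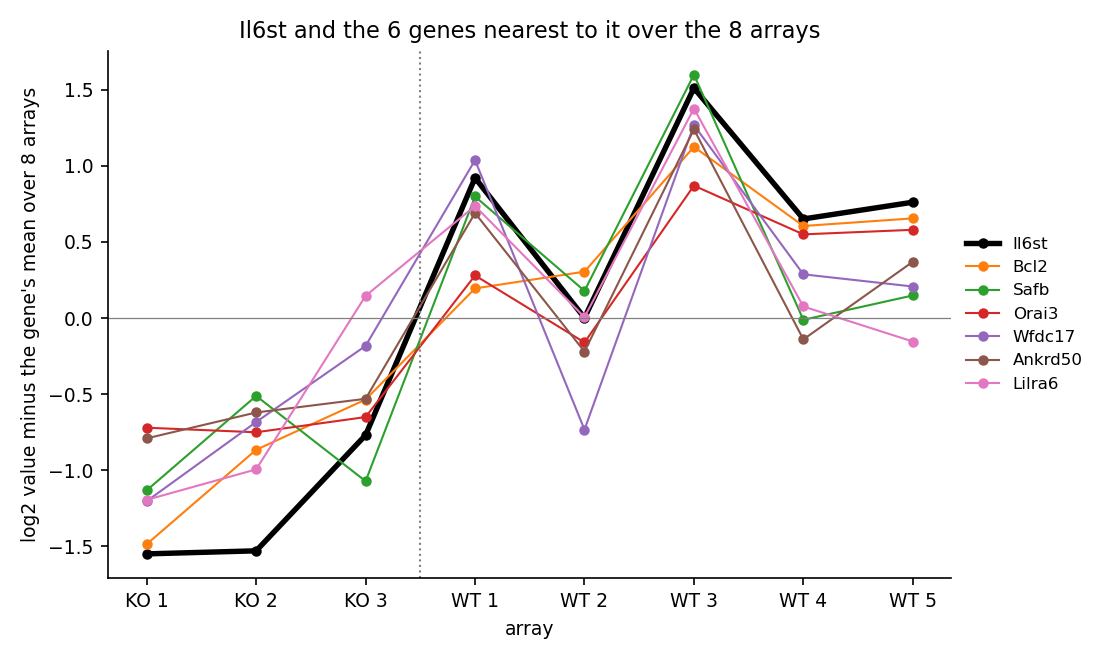
Log2 values of Il6st (thick black line) and the 6 genes nearest to it, each minus its own mean over the 8 arrays, with the dotted line between KO and WT arrays. All 7 genes peak on WT array 3, and Il6st spans more than the others, from 6.05 on KO array 1 to 9.11 on WT array 3 before centring.

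Around the axis, 71 genes were listed in 6 groups by role. Of these 64 had a row, 46 were tested and 0 were called, against 0.0% of all tested genes. KO and WT did not overlap in 4 of the 46, or 8.70%, where 3.09% of all tested genes did so. These 4 were Rhbdf2, Irs2, Bcl2 and Junb. The nearest arrays were 0.08 apart in Rhbdf2 and 0.10 in Irs2, and in Junb they were 11.02 in KO and 10.98 in WT. The lists were chosen with earlier results of these data known, and Bcl2 was already given as the gene nearest to Il6st. The 46 were not counted without WT array 3, where the share of all tested genes was 5.55%. Nothing about the axis is read from the count of 4.

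Of the cytokines that signal through gp130, 8 of 10 had a row and 3 were bright enough to test. Il6, Il11, Lif, Clcf1 and Il27 were too dim. Osm, encoding oncostatin M, was 5.45, 5.59 and 6.58 in KO and 5.67, 5.22, 5.28, 6.19 and 4.99 in WT. The difference was 0.40 (interval -0.40 to 1.21), and 0.35 without WT array 3. Osm lay above the median row on 3 KO arrays but only 2 WT arrays, so it passed the filter through KO. Only 41.6% to 69.2% of negative control rows lay below it, and no direction is read from it. Ctf1, encoding cardiotrophin-1, differed by 0.07 and Ebi3, a subunit of interleukin-27, by 0.15, and by 0.34 and 0.10 without WT array 3. Ctf1 was highest on WT array 3, at 9.62 against 8.03 to 8.51 on the other WT arrays. The list's median was 0.15, and 0.34 without that array, with all 3 above 0 in both fits. Since Osm is 1 of the 3, nothing is read from that count.

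Among the other co-receptors and the proteins that shed receptor from the cell surface, Cntfr and Il27ra were too dim to test. The sheddase genes Adam10 and Adam17 differed by 0.24 and 0.06, and by -0.05 and -0.17 without WT array 3, on which both were lowest. Rhbdf2, which encodes iRhom2, a partner needed for ADAM17 to mature, was 9.65, 9.46 and 9.76 in KO and 10.02, 9.88, 11.52, 9.86 and 9.84 in WT. The groups did not overlap, but the nearest arrays were 0.08 apart. The difference was -0.60 (interval -1.49 to 0.29, limma adjusted p = 0.998), and -0.28 with WT array 3 left out. The median of the 3 tested genes was 0.06 with all arrays, with 1 below 0, and -0.17 with all 3 below 0 when that array was left out.

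Of 13 negative regulators, 8 were tested, 4 above 0 and 4 below, with a median of -0.12. The split was 2 above and 6 below without WT array 3, with a median of -0.23. Ptpn6, encoding the phosphatase SHP-1, differed by 0.18, Ptprc, encoding CD45, by -0.27, Pias1, an inhibitor of activated STAT proteins, by 0.02, and Ptpn1, encoding PTP1B, by 0.68 with an interval of -0.66 to 2.03. They stood at -0.04, -0.35, -0.12 and 0.21 without WT array 3. Ptpn1 was 12.10, 12.67 and 11.83 in KO and 12.60, 11.56, 9.61, 11.87 and 11.93 in WT, and the groups overlapped with or without WT array 3. The SOCS family genes Socs1, Socs2 and Cish did not reach the level for testing.

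Adaptors that link gp130 to RAS and PI3K included 7 tested genes, 6 above 0 and 1 below, with a median of 0.21. WT array 3 was the lowest array for 5 of them, and without it 3 were above 0 and 4 below, with a median of -0.09. Shc1 differed by 0.30, Grb2 by 0.04 and Sos1 by 0.12, and by -0.20, -0.28 and -0.09 without that array. Irs2, which encodes an insulin receptor substrate that recruits PI3K, was 13.40, 13.35 and 13.31 in KO and 13.89, 13.69, 13.50, 13.56 and 13.96 in WT. It did not overlap between groups, with nearest arrays 0.10 apart, and differed by -0.36 (interval -0.80 to 0.07, limma adjusted p = 0.998) and by -0.42 without WT array 3.

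Of the other JAK and STAT genes, 5 were tested, 3 above 0 and 2 below, with a median of 0.01 that was -0.04 without WT array 3, where 2 were above 0 and 3 below. Stat6 differed by 0.15, Stat2 by 0.06, Stat5a by 0.01 and Stat5b by -0.01, and by 0.01, -0.24, 0.19 and -0.04 without WT array 3. Of the other 4, the intervals with all arrays were -0.47 to 0.76 for Stat6, -0.81 to 0.93 for Stat2, -0.68 to 0.70 for Stat5a and -0.47 to 0.45 for Stat5b. Stat5a was highest on WT array 3, at 10.2, and Stat2 lowest, at 9.52.

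Textbook STAT3 targets numbered 26, of which 20 were tested, 14 above 0 and 6 below, with a median of 0.11. Without WT array 3 the split was 12 and 8, with a median of 0.07. Bcl2 stood alone at -1.54 (limma adjusted p = 0.998), and the other 19 lay between -0.55 and 0.57. The list's brightest genes were Ccnd3, encoding cyclin D3, with a difference of 0.28, Lcn2, encoding lipocalin 2, with -0.13, Birc5, encoding survivin, with 0.13, and Vegfa, the vascular growth factor gene, with 0.02. Leaving out WT array 3 gave 0.09, -0.09, 0.06 and 0.09. Junb, an AP-1 subunit gene, was 11.09, 11.02 and 11.06 in KO and 10.98, 10.75, 10.05, 10.91 and 10.55 in WT. It was higher in KO without overlap, by 0.41 (interval -0.15 to 0.97, limma adjusted p = 0.998), and by 0.26 without WT array 3.

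**Figure D4:**
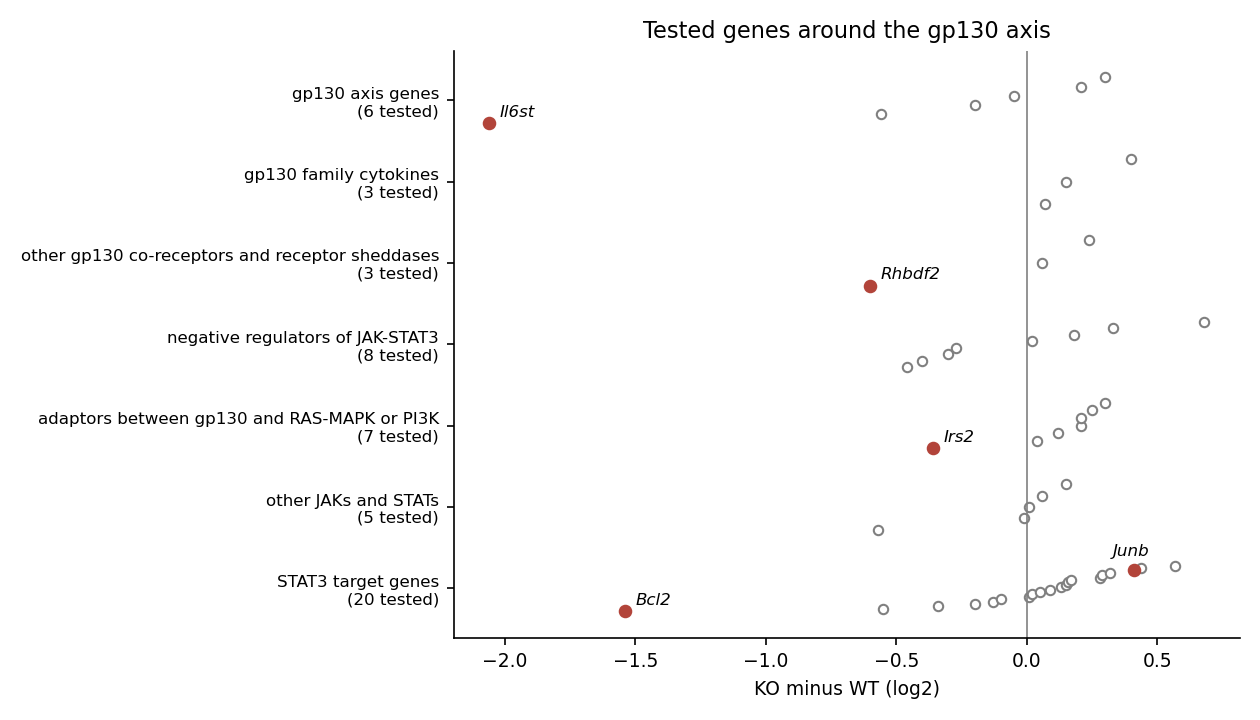
KO minus WT difference (log2) of each tested gene, by role, with open grey circles where KO and WT arrays overlap and filled red circles with names where they do not. Il6st at -2.06 and Bcl2 at -1.54 lie apart from the other tested genes, which stay between -0.60 and 0.68.

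Markers of cells other than GMPs varied between arrays. Mean levels over the 8 tested mast cell, basophil and eosinophil markers, of 16 listed, were 7.74 to 7.78 in KO and 7.75 to 9.01 in WT, with WT arrays 3 and 4 highest. The 5 tested megakaryocyte and platelet markers, of 10 listed, were at 6.24 to 6.51 in KO and 6.22 to 9.11 in WT, with WT array 1 highest. The 4 tested dendritic cell markers, of 10 listed, were at 8.36 to 8.61 and 8.57 to 9.29, and the 2 tested B cell markers, of 8 listed, at 6.78 to 7.09 and 6.62 to 8.57. The 3 tested erythroid markers, of 10 listed, were at 7.96 to 8.38 and 7.54 to 9.53, the 3 tested T and NK cell markers, of 9 listed, at 5.40 to 5.75 and 4.93 to 6.46, and the 2 tested stromal and endothelial markers, of 10 listed, at 7.64 to 8.04 and 7.43 to 8.51. The 10 tested neutrophil markers, of 11 listed, were at 13.41 to 14.87 in KO and 13.85 to 14.61 in WT. Within these lists levels were mixed. Cd79a, Cd3e, Siglech, Epx and Cdh5 lay below the median row on all 8 arrays, while Cd79b, Vpreb1, Cd4, Bst2, Tcf4, Prg2, Prg3 and Pecam1 lay above it on all 8. Prg2, an eosinophil granule gene, was at 6.22 to 8.53 in KO and 7.14 to 12.84 in WT, the lowest difference of its list at -2.19. Of that list's 8 tested genes, 6 were below 0 and 2 above. Those above were Hdc, at 7.60 to 10.65 in KO and 7.17 to 9.16 in WT, and Siglecf, at 10.33 to 11.84 and 9.76 to 10.57. Il6st was 7.60 on WT array 2, where the mast cell, megakaryocyte and dendritic lists were at 7.75, 6.22 and 8.57. It was 8.36 on WT array 5, where these lists were at 7.79, 6.27 and 8.69 and the B cell list at 7.14. On WT array 5 the mast cell, dendritic and B cell lists lay narrowly above their highest KO means of 7.78, 8.61 and 7.09. The megakaryocyte list lay within its KO range there, as did the T and NK cell list at 5.66 and the neutrophil list at 13.85. The erythroid list at 7.88 and the stromal and endothelial list at 7.43 lay below all KO arrays. The part of these cells in the Il6st difference was not tested. Haematopoietic stem cell genes, which share Cd34 with the GMP list and Gata2 with the mast cell list, were at 7.17 to 8.38 in KO and 7.75 to 9.11 in WT over 4 tested genes, and monocyte and macrophage markers at 8.77 to 9.26 and 8.66 to 9.75 over 10. In a bulk sample, fewer cells that carry a transcript and less of it per cell cannot be told apart.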

How the data were processed

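The authors deposited 1 table of array values, read as log2 from their range of 1.89 to 18.65 because no label states the base, with 28846 rows and 8 arrays. The sources used here do not give the background correction, normalization or genome build. RNA was isolated with a small-sample kit and labelled with biotin, per the labels' protocols. The submitters' design text names a mouse transcriptome array, while the row identifiers match the annotation of another Affymetrix mouse array, so the platform is not settled. Of 22206 transcript rows, 19572 carried 1 symbol and 2634 carried none.

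A gene was tested if its row lay above the array's median row on at least 3 arrays. The row with the highest mean stood for each symbol. KO was compared with WT by limma 3.58.1 in R 4.3.3 (lmFit and eBayes, two-sided, Benjamini-Hochberg over 9920 genes, no covariates), and the code was tested on simulated data. Groups and replicate numbers came from the sample titles.

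The members and lists were chosen with earlier results of these data known. Named beside the axis genes are, in each list, tested genes whose groups do not overlap and up to 4 with the highest mean, the 6 genes nearest to Il6st, and Pik3ca. Stat4 is given for its difference and is not among the 39 named genes followed through other settings. Marker genes and the CCAAT and GGGCGG motifs were picked after values or sequences were seen. Promoters are RefSeq's, of which all 10 genes matched. Alternatives covered normalization, the filter, a floor, the empirical Bayes options, array weights, the replicate number, the choice of row and each array left out. Protein motif searches were planned and not run. Plots used matplotlib 3.10.9 under Python 3.11.15.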

Additional observations from a re-analysis of the deposited data

Results flagged for a closer look

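For 39 named genes, the highest and lowest of the 5 WT arrays were each checked for a gap to the next array larger than 0.71 of the group's range. Such gaps were found in 14 genes, and all 14 were on WT array 3. The rule is set so that chance gives about 1 in 20 for a single gene, but these genes share the same arrays. WT array 3 was also the lowest array for 36.5% of all tested genes and the highest for 25%. The share of all tested genes with such a gap was not counted, so nothing about the axis is read from the count of 14. That array was low in 13 of them. Among the axis genes these were Jak1 at 7.93, Jak2 at 9.91 and Stat3 at 13.7. Around the axis they were Pik3ca at 8.41, Adam10 at 13.11, Adam17 at 10.68, Pias1 at 11.7, Ptpn6 at 13.59, Shc1 at 10.48, Grb2 at 11.77, Sos1 at 11.06, Stat2 at 9.52 and Ccnd3 at 16.3. Rhbdf2, at 11.52, was the only one of the 14 where WT array 3 was high. Il6st and Il6ra were also highest on this array, at 9.11 and 11.43, without standing far enough from the other WT arrays to be found.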

How the results depend on the processing

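Under 17 other settings, 8 of which left out 1 array, 0 genes were called in each, with a smallest adjusted p of 0.264 over all genes (limma). Il6st kept its direction and lay between -2.10 and -1.96 under other processing and between -2.31 and -1.87 with 1 array left out. The median of the tested axis genes lay between -0.20 and 0.00 under other processing and between -0.22 and -0.04 with 1 array left out. Groups that did not overlap numbered 1 to 2 with 1 array left out, the other being Il6ra without KO array 1. The share of all tested genes without overlap was not counted for that setting, so nothing is read from the added gene. Of 39 named genes, 19 kept their direction in every fit. With array weights Jak1 turned to -0.12, Jak2 to -0.01, Adam17 to -0.11, Pias1 to -0.11, Ptpn6 to -0.02, Shc1 to -0.13, Grb2 to -0.25, Sos1 to -0.05 and Stat2 to -0.20. Quantile normalization turned Pias1 to -0.02, Grb2 to -0.01 and Stat5a to -0.0037, and median centring turned Stat5b to 0.03. The causes were not tested. With 1 array left out, values that turned ranged from -0.18 to 0.48 for Jak1, -0.08 to 0.36 for Jak2, -0.39 to 0.15 for Tyk2, -0.21 to 0.04 for Stat3, -0.39 to 0.04 for Pik3ca, -0.06 to 0.34 for Ctf1, -0.11 to 0.41 for Ebi3, -0.05 to 0.35 for Adam10, -0.17 to 0.24 for Adam17, -0.12 to 0.13 for Pias1, -0.04 to 0.26 for Ptpn6, -0.20 to 0.47 for Shc1, -0.28 to 0.16 for Grb2, -0.09 to 0.23 for Sos1, -0.24 to 0.20 for Stat2, -0.23 to 0.19 for Stat5a, -0.13 to 0.08 for Stat5b and -0.04 to 0.09 for Vegfa.

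KO and WT arrays share the numbers 1 to 3, and the labels do not say whether these arrays were paired. Deviations from the group means of same-numbered arrays correlated at 0.018, -0.018 and 0.137, which cannot settle it. Of the 3 KO arrays, 1 correlated best with the WT array of its own number. With the replicate number as a block, 0 genes were called, and Stat3 turned to 0.09, Ctf1 to -0.17, Stat5a to -0.07 and Stat5b to 0.12. The number of arrays limits precision, and Lifr, Osmr and Socs3 lie too low on them to be read.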
